A study of Mus musculus with 2 samples.

Results

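Granulocyte progenitors with azurophil protease transcripts were described among cells sorted from mouse alveolar bone, the bone that holds the teeth. A cell (a droplet barcode with at least 200 genes and at most 5% mitochondrial UMIs) was taken when Elane, Mpo, Prtn3 and Ctsg together made up at least 1% of its UMIs (unique molecular identifiers, the tags by which captured RNA molecules are counted). This chose 64 of 2835 control cells and 42 of 2052 cells after orthodontic tooth movement (OTM), or 106 of 4887 in all. The share was 2.26% of control cells (exact Clopper-Pearson 95% interval 1.74 to 2.87) and 2.05% of OTM cells (1.48 to 2.76), so the difference lay within counting error. These are shares of the barcodes in the tables used here, which are fewer than the cells that the study describes. Since the 4 transcripts chose the cells, their levels are given as a description and support nothing.

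Both groups were male C57/B6 J mice of 8 weeks. Control mice carried no appliance force, and OTM mice had 7 days of force from a spring that pulled a first molar. From each group, F4/80+CD11b+ cells were sorted and made into 1 droplet library, and the study's methods give the number of mice for both groups together but not for each library. The deposited tables held 2863 control barcodes with 14620877 UMIs and 2058 OTM barcodes with 16500733 UMIs.

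With 1 library per condition and cells that are not replicates, no test was possible, and all intervals below cover counting error only. Levels are CPM, the UMIs of a gene per 1000000 UMIs, from counts summed over a group of cells. Cycling immature neutrophils were taken as the other cells with at least 5% of UMIs from Ltf, Camp, Ngp and Lcn2 and at least 0.5% from cell cycle genes (200 control and 184 OTM cells). Noncycling specific-granule cells had at least 5% and under 0.5% (573 and 419 cells). Cycling monocytes had under 5%, at least 0.5%, and at least 0.1% from Csf1r, Ccr2, Ly6c2, F13a1 and Ms4a6c (188 and 115 cells).

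Neutrophils are made in the bone marrow through stages that each fill a different kind of granule. At the promyelocyte stage, azurophil granules receive the serine proteases neutrophil elastase (Elane), proteinase 3 (Prtn3) and cathepsin G (Ctsg), together with myeloperoxidase (Mpo), which makes hypochlorous acid. Later, at the myelocyte and metamyelocyte stages, transcription moves to specific granule proteins such as lactoferrin (Ltf), cathelicidin (Camp), neutrophilic granule protein (Ngp) and lipocalin-2 (Lcn2), and division stops. Azurophil transcripts are gone from mature neutrophils, although their proteins remain.

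Stretches near the RefSeq starts of the 4 genes are shown because the cells were chosen by their joint transcription. They are from RefSeq on GRCm38.p6, each on its gene's strand. GGAAGT, the letters at the core of many sites of ETS-family factors such as PU.1, and AACGG, at the core of MYB sites, are in capitals.
Elane, chr10:79886217-79886271, plus strand: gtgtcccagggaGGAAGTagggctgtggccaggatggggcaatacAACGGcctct
Prtn3, chr10:79879562-79879628, plus strand: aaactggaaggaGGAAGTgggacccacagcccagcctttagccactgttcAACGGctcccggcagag
Mpo, chr11:87793550-87793579, plus strand: tggagagagagaGGAAGTtgcctttgtccc
Ctsg, chr14:56102762-56102791, minus strand: agaggaagaaaaGGAAGTagtcacctgttt
In windows of 300 bases around the annotated starts, searched on both strands, GGAAGT was in 4 of these 4 promoters and in 23.8% of 32851 promoters. AACGG was in 2 of the 4, Elane and Prtn3, and in 17.4% of all, and the 2 sets of letters do not overlap in these stretches. The promoters of Ltf, Camp, Ngp and Lcn2 held neither. These matches are letters in a window and not sites. By GENCODE the Mpo and Ctsg stretches lie upstream of the gene. The end of the Elane stretch, which holds its AACGG, reaches into the first exon. The Prtn3 stretch, with both sets of letters, lies within the span of the longest gene model. In GENCODE vM21 on GRCm38, Prtn3 (chr10:79874476-79883174) and Elane (chr10:79886247-79888215) are neighbours on the plus strand, and Prss57, a further azurophil serine protease gene, is at chr10:79781474-79790961 on the minus strand. Mpo is at chr11:87793581-87804413 and Ctsg at chr14:56099881-56102574.

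Among the 4 transcripts Elane was the most abundant, at 15379 CPM over the control cells and 18933 over the OTM cells. Prtn3 was at 5646 and 5273 CPM, Mpo at 4021 and 5922 CPM, and Ctsg at 2967 and 2603 CPM. In single control cells Elane ran from 3361 to 42175 CPM with a median of 14775, and in OTM cells from 6297 to 39567 CPM with a median of 18009. Ctsg varied more, from 0 to 9347 CPM (median 2313) in control cells and from 172 to 8271 CPM (median 1522) in OTM cells. The 4 transcripts together had a median of 2.68% of a control cell's UMIs (1.02 to 6.18) and 2.74% of an OTM cell's UMIs (1.17 to 6.73).

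Near the boundary, 4 control cells and 5 OTM cells had between 0.8 and 1% of these transcripts and were left out, while the next cells inside, 4 control cells at 1.02 to 1.15% and 1 OTM cell at 1.17%, were kept. The 4 control cells just outside had specific granule shares (Ltf, Camp, Ngp and Lcn2 together) of 7.24 to 13.9% of UMIs, and the 4 just inside 0.153 to 10.2%. In OTM the 5 cells just outside had 0.131 to 13.2% and the cell just inside 11.9%. At least 2% of UMIs was reached by 42 control and 35 OTM cells, and at least 5% by 7 and 3 cells. Under 0.1% lay 2704 of the control cells and 1909 of the OTM cells.

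The identity of the cells was read from 10 progenitor genes that the rule did not use. Ms4a3, a membrane protein of granulocyte and monocyte progenitors, was found in all 64 control and all 42 OTM cells, at 1582 and 2277 CPM. Nkg7, a granule membrane protein, was found in 63 and 42 cells at 1736 and 1400 CPM. Prss57 was at 268 and 311 CPM in the azurophil-transcript cells and at 0.572 and 2.51 CPM in cycling monocytes. Gstm1, a glutathione transferase, was at 494 and 580 CPM. Igfbp4 was at 188 and 170 CPM and Cebpa at 34.5 and 14.1 CPM. Fcnb (ficolin-B) was at 742 and 1117 CPM, against 599 and 516 CPM in cycling immature neutrophils. Cebpe, a transcription factor needed for the later granule stages, was at 188 and 363 CPM against 316 and 297 CPM. Serpinb1a, an inhibitor of neutrophil proteases, was at 779 and 2476 CPM against 897 and 1548 CPM. Gfi1, a repressor needed for neutrophil formation, had 8 and 7 UMIs. Of the 9 genes with enough UMIs, 6 were at least 2-fold above cycling immature neutrophils in both libraries and none below, where 21.4% of all 5671 genes compared were above and the median gene was higher by 0.46 and 0.52 on the log2 scale. These genes fit the name of granulocyte progenitors over the summed cells, whereas the study calls the sorted cells macrophages. Of the progenitor genes, Nkg7, Ms4a3, Cebpe, Prss57 and Fcnb were lower in 15 control cells with Irf8, described below, than in the 49 without. Cebpa, Igfbp4, Gstm1 and Serpinb1a were not compared in this way. Specific granule share was not held alike in this comparison. Nkg7 was at 686 against 2216 CPM, Ms4a3 at 826 against 1928 and Cebpe at 45.5 against 253. The monocyte gene Ms4a6c was at 254 against 17.3 CPM.

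Of the 8 macrophage markers, 6 had at most 6 UMIs in either library, while Vcam1 and Apoe did not. Adgre1, the gene of the F4/80 protein on which the sort was based, had 5 UMIs over the 64 control cells and 6 over the 42 OTM cells. The macrophage list summed to 201 CPM in control and 492 CPM in OTM, against 1173 and 2602 CPM in all other cells. In cycling immature neutrophils it summed to 261 and 374 CPM. Vcam1, an adhesion molecule, was at 120 and 190 CPM against 22.2 and 14.5 CPM in all other cells, and Apoe, a lipid carrier, at 58.3 and 284 CPM against 949 and 2434 CPM. In OTM C1qc and Mrc1 had no UMI. The part of other cells' RNA in the counts of Vcam1 and Apoe was not tested. B lineage markers summed to 26.2 and 12.6 CPM, with 6 and 8 of 10 genes at 0. T and NK markers summed to 10.7 and 18.9 CPM, with 8 of 9 genes at 0 in each library. Eosinophil markers summed to 10.7 and 14.1 CPM, and mast cell and basophil markers to 17.8 and 22 CPM, and neither Gata2 nor Epx had a UMI. Erythroid markers summed to 232 and 92.7 CPM, led by Hbb-bs and Hba-a1, without Gata1, Klf1 or Alas2. The hemoglobin share of any azurophil-transcript cell was at most 0.147%. Stroma and bone markers had a single UMI in control, of Col1a2, and none in OTM, and megakaryocyte markers summed to 5.95 and 15.7 CPM. Plasmacytoid dendritic markers summed to 246 and 88 CPM, nearly all of it Bst2, without Siglech or Ccr9.

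The cells were deep, with a median of 12860 UMIs and 2552 genes in control and 14795 UMIs and 2701 genes in OTM. All control cells together had a median of 3998 UMIs and all OTM cells 6862. Depth was not particular to these cells. Cycling immature neutrophils had medians of 9300 and 14888 UMIs, and cycling monocytes 9096 and 13803. The deepest control cell had 33041 UMIs and the deepest OTM cell 40340 UMIs. Scrublet called 1 control and 6 OTM cells of the libraries doublets, which is 0.0353% and 0.292% of the cells and therefore too few for the caller to be relied on. None of these was an azurophil-transcript cell, and no doublets were removed. The libraries shared 6 barcode sequences, none of them in these cells. Fewer than 200 genes per 1000 UMIs, a limit not applied here, were found in 28 of the 64 control and 25 of the 42 OTM cells.

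Ribosomal protein genes took up 30.7% of UMIs in the control cells and 24.2% in the OTM cells. In cycling immature neutrophils they took up 7.31% and 7.63%. Of the 15 most abundant genes, 8 in control and 6 in OTM were ribosomal protein genes, among them Rpl41, Rps29, Rps19 and Rpl32. S100a8 and S100a9, the calprotectin subunits that fill the cytosol of neutrophils, led in both libraries, at 34396 and 19642 CPM in control and 51735 and 27384 CPM in OTM. Cells with much specific granule RNA carried most of this. In cells under 1% of Ltf, Camp, Ngp and Lcn2 UMIs S100a8 was at 9514 CPM in control and 13452 CPM in OTM, below Elane at 16138 and 25280 CPM, and in cells at 1% or more it was at 113598 and 73717 CPM. The mitochondrial share had a median of 2.11% in control and 1.88% in OTM, against 0.688% and 0.577% in cycling immature neutrophils.

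The cells spread over a wide range of specific granule transcripts, which the rule did not use. Ltf, Camp, Ngp and Lcn2 had a median of 0.173% of UMIs in the control cells (0.0534 to 10.2) and 2.37% in the OTM cells (0.0772 to 11.9). The cells under 1% had medians of 0.149% and 0.197% (upper quartiles 0.175% and 0.508%). In cycling monocytes, which do not make these granules, the medians were 0.16% and 0.207%, so the lower of these shares cannot be told apart from free RNA, while 3 OTM cells at 0.868 to 0.99% had Ngp at 7357 to 9019 CPM. Under 1% lay 44 of 64 control cells and 17 of 42 OTM cells. A boundary at 1%, chosen after these values were seen, cuts a range and does not mark cell types. No control cell and 3 OTM cells lay between 0.8 and 1.2%. Both kinds of granule transcript were thus found together in a larger share of the OTM cells of these 2 libraries.

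**Figure D1:**
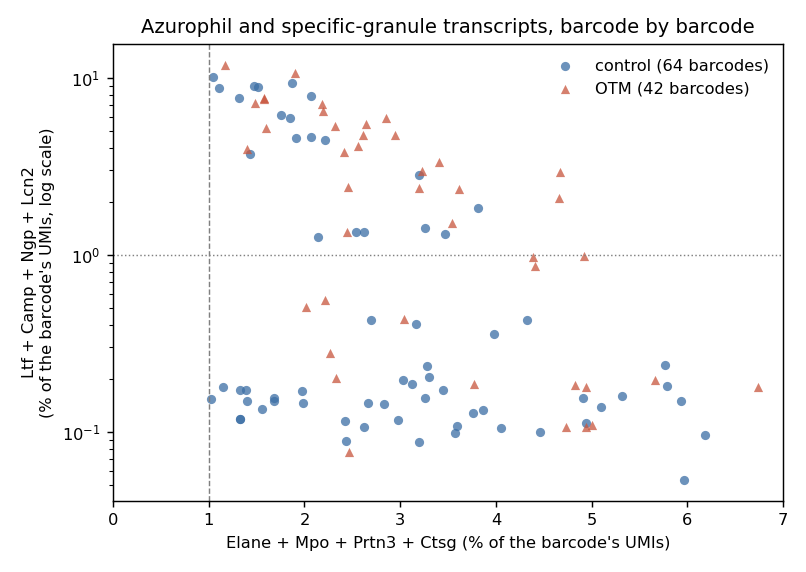
Each point is 1 azurophil-transcript cell, with the share of its UMIs from Elane, Mpo, Prtn3 and Ctsg on the x axis (%) and from Ltf, Camp, Ngp and Lcn2 on the y axis (%, log scale); circles are the 64 control cells and triangles the 42 OTM cells. The dashed line is the 1% that chose the cells and the dotted line the 1% that divides them; 44 control and 17 OTM cells lie under the dotted line, and cells at 5% or more on the x axis all lie there.

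At the highest azurophil shares all specific granule shares were low. The 7 control and 3 OTM cells at 5% or more azurophil transcripts had specific granule shares of 0.0534 to 0.24% and 0.11 to 0.197%. The 7 OTM cells at 1 to 2% all had specific granule shares of 3.96% or more, while the 22 control cells in that range held both ends, from 0.118 to 10.2%, with a median of 0.176%. Between 2 and 5%, the 35 control cells ran from 0.088 to 7.9% with a median of 0.187%, and the 32 OTM cells from 0.0772 to 7.16% with a median of 1.8%. The control medians therefore had no order over the 3 ranges. Both are shares of the same UMI total, so these values are a description of the cells and not a relation that was tested.

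Against cells at under 1% of specific granule UMIs, cells at 1% or more had 38 genes at least 2-fold higher in both libraries (1.36% of 2797 genes compared) and 96 at least 2-fold lower (3.43%), leaving out the genes that divided them. Chil3, a chitinase-like protein abundant in immature neutrophils, was at 291 CPM under 1% and 4882 CPM above in control, and at 1249 and 6874 CPM in OTM. S100a8 was at 9514 and 113598 CPM in control and at 13452 and 73717 CPM in OTM. Cd177, a neutrophil surface protein, was at 14.1 and 164 CPM in control and 25.8 and 136 CPM in OTM. Hvcn1, the voltage-gated proton channel, was at 15.6 and 59.7 CPM in control and 4.31 and 49.5 CPM in OTM.

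Among the 10 genes with the lowest ratios along the same range were Myb, Myc, Ccnd2, Srm and Jagn1. Myb, a transcription factor of immature blood cells, was at 150 and 29.9 CPM in control and at 134 and 37.1 CPM in OTM. Myc went from 57.8 to 9.95 CPM in control and from 86.1 to 19.8 CPM in OTM, and Ccnd2, a G1 cyclin, from 86 to 4.98 CPM and from 64.6 to 12.4 CPM. Srm, which makes spermidine, was at 184 and 24.9 CPM in control and 138 and 27.2 CPM in OTM. Jagn1, an endoplasmic reticulum protein needed for neutrophil formation, was at 40.7 and 4.98 CPM in control and 56 and 17.3 CPM in OTM. Of 18 nucleolus and ribosome biogenesis genes compared, 5 were at least 2-fold lower in both libraries, 13 were not and none was higher. None of 21 S phase and 22 G2/M genes passed 2-fold in either direction. Of 8 specific granule genes outside the dividing set, 5 were at least 2-fold higher and none lower.

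The mix of the 4 selecting transcripts along this range is given as a description. Ctsg made up 12.2% of their summed UMIs in control cells under 1% (exact interval 11.7 to 12.6) and 3.16% above (2.65 to 3.74). In OTM cells it made up 10.3% (9.75 to 10.9) and 5.54% (5.1 to 6). The share of Elane was 53% and 63.8% in control and 55.9% and 59.8% in OTM, while its level was lower above 1%, at 16138 and 12964 CPM in control and 25280 and 15288 CPM in OTM. Prtn3 stayed at 20.2% and 20% in control and was at 14.8% and 17.4% in OTM. Mpo was at 14.6% and 13% in control and at 19% and 17.2% in OTM. In CPM, Ctsg was at 3698 and 642 in control and 4674 and 1415 in OTM.

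**Figure D2:**
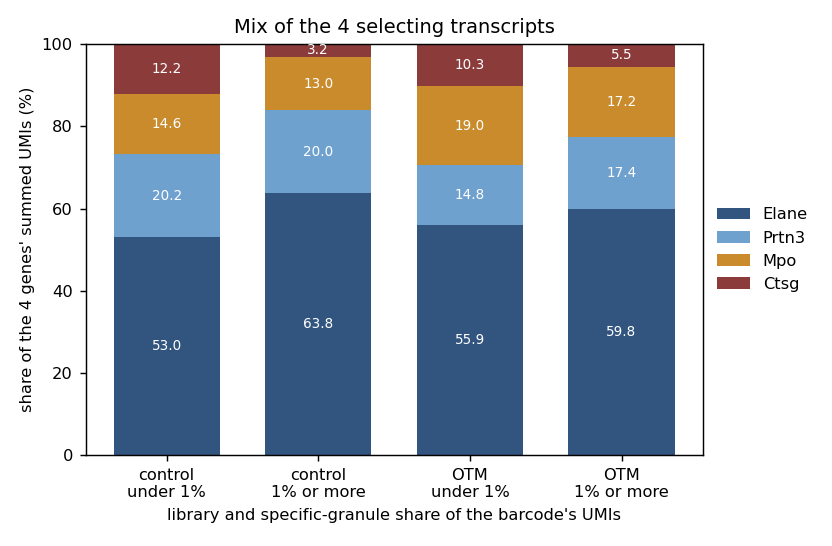
Stacked bars give the share (%) of the summed UMIs of Elane, Prtn3, Mpo and Ctsg that each gene took, for cells under and at or above 1% of specific granule UMIs in each library. Ctsg takes 12.2% and 3.16% in the control bars and 10.3% and 5.54% in the OTM bars, and Elane takes more than 50% in all 4 bars.

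Cycling immature neutrophils were taken as the comparison because they are the later neutrophil stage with cell cycle transcripts. On several lists cycling monocytes lay nearer, with 21.4% and 19.8% ribosomal protein UMIs, 7745 and 8047 CPM of endoplasmic reticulum genes and 3311 and 2991 CPM of nucleolus genes. Compared with cycling immature neutrophils in each library, 1212 of 5671 genes were at least 2-fold higher in the azurophil-transcript cells in both libraries (21.4%) and 222 at least 2-fold lower (3.91%). The median gene was itself higher, by 0.46 in control and 0.52 in OTM on the log2 scale. The 15 leading genes took up 51.9% and 49.9% of the UMIs of the comparison cells, and 16.8% and 20.1% of those of the azurophil-transcript cells. With TMM scaling 473 genes were higher and 614 lower, and with totals without the 4 selecting, mitochondrial, ribosomal protein and hemoglobin genes 2121 and 96, so the balance between the directions depended on the scaling. The groups were formed from the 4 selecting genes, the 4 granule genes and the cell cycle lists, and no value of those is read here.

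Of the lists with more than 2 genes compared, nucleolus and ribosome biogenesis had the highest median. Of 20 genes compared, 19 were at least 2-fold higher in both libraries and none lower. Of all 5671 genes compared, 21.4% were higher and 3.91% lower. The median log2 ratio of the list was 3.09 in control and 2.60 in OTM, beside 0.46 and 0.52 for all genes. These list counts were not repeated with other scalings. The summed level of the list was 5932 CPM (5768 to 6099) in control, against 1063 CPM (1018 to 1110) in cycling immature neutrophils. In OTM it was 3526 CPM (3381 to 3675) against 917 CPM (881 to 953). Npm1, the abundant nucleolar chaperone nucleophosmin, was at 1242 against 131 CPM in control and 605 against 121 CPM in OTM. Fbl, the methyltransferase fibrillarin, was at 217 against 16.1 CPM and 107 against 17.5 CPM. Gar1, of the box H/ACA ribonucleoprotein, was at 114 against 5.72 CPM and 72.3 against 4.01 CPM.

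Genes of protein folding and export in the endoplasmic reticulum, the machinery through which granule proteins pass, were also higher. Of 26 compared, 22 were at least 2-fold higher and none lower, beside 21.4% and 3.91% of all 5671 genes compared. The medians were 1.96 in control and 1.86 in OTM, beside 0.46 and 0.52 for all genes. These counts too were not repeated with other scalings. Calr, the calcium-binding chaperone calreticulin, was at 889 against 44.7 CPM in control and 520 against 44.1 CPM in OTM. Sdf2l1, a cofactor of the chaperone BiP, was at 710 against 39 CPM and 550 against 32.4 CPM. Pdia6 and Manf were at 451 and 772 CPM in control and at 401 and 644 CPM in OTM, against 53 and 106 CPM and 63 and 89.3 CPM. Ddit3, the stress-induced factor CHOP, was not higher, at 17.8 against 38.5 CPM in control and 11 against 22.2 CPM in OTM, and Atf4 was at 97.6 against 81.1 CPM and 77 against 81.6 CPM.

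**Figure D3:**
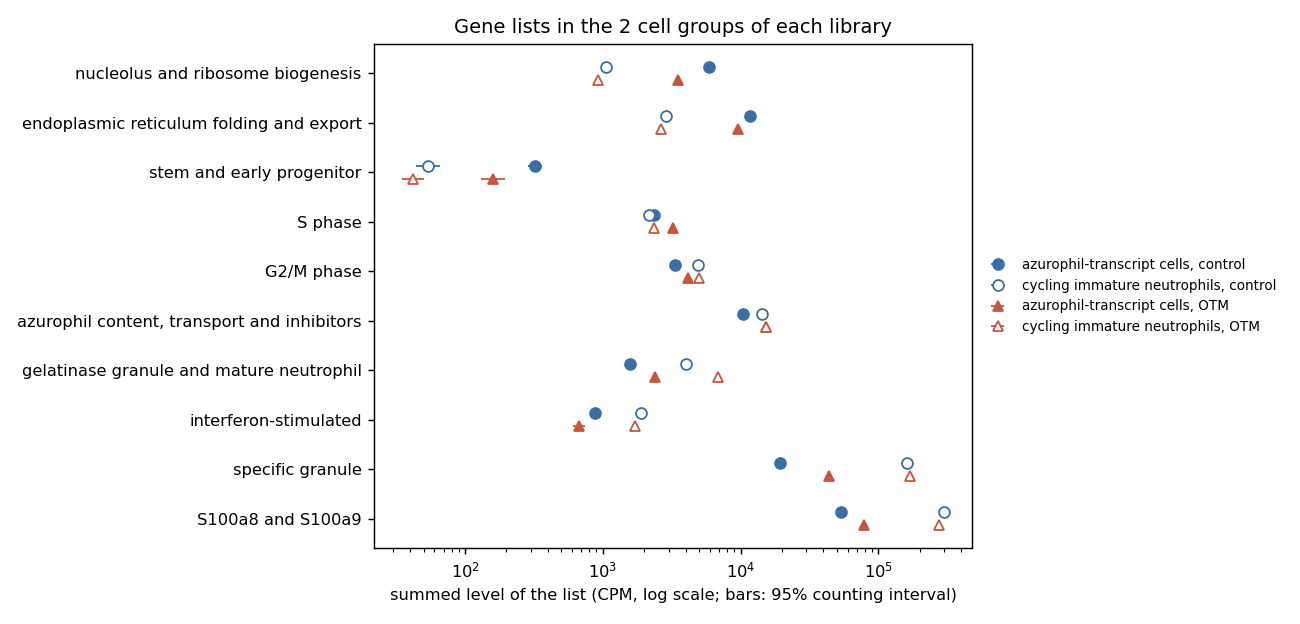
Summed level (CPM, log scale) of 10 gene lists in azurophil-transcript cells (filled) and in cycling immature neutrophils (open), control as circles and OTM as triangles, with 95% counting intervals. The nucleolus, endoplasmic reticulum and stem and early progenitor lists are higher in the filled symbols of both libraries, and the S100 list lower. The specific granule and cell cycle lists hold genes that formed the open groups, so their differences were set by that choice and are not read.

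Among single genes outside the selecting set, the 10 largest ratios over cycling immature neutrophils were of genes with varied roles. Phgdh, the entry enzyme of serine synthesis, was at 175 against 2.08 CPM in control and 59.7 against 1.09 CPM in OTM. Cst7 (cystatin F), an inhibitor of the cathepsin C that activates azurophil proteases, was at 275 against 10.4 CPM and 226 against 6.92 CPM. C1qbp, a mitochondrial matrix protein, was at 196 against 6.24 CPM and 104 against 4.74 CPM. Srm was at 146 CPM against 1 UMI in control and at 67.6 CPM against 6 UMIs in OTM. Apex1, a DNA repair endonuclease, was at 64.2 against 2.08 CPM and 50.3 against 1.82 CPM, and Dmkn, Gar1, Ndufaf4, Ppan and Sdf2l1 completed the 10 highest.

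Among the 10 lowest were granule and surface genes of later neutrophils. Ltf and Lcn2 are among the genes that formed the comparison cells, so they are named only. Ly6g, the neutrophil surface protein used for sorting, was at 27.4 against 289 CPM in control and 28.3 against 275 CPM in OTM. Cd177 was at 50 against 473 CPM and 95.8 against 737 CPM, and Fpr2, a formyl peptide receptor, at 16.7 against 156 CPM and 23.6 against 210 CPM. Ifitm6 was at 61.9 against 727 CPM and 121 against 1373 CPM. Inhba, the activin A subunit, had 0 and 2 UMIs in the azurophil-transcript cells and was at 61.4 and 68.1 CPM in the comparison cells. AA467197, Cldn1 and Tmem45a2 were the others.

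The azurophil genes outside the rule were split. Of 14 granule content, transport and inhibitor genes compared, 5 were at least 2-fold higher, 2 lower and 7 neither. Of all 5671 genes compared, 21.4% were higher and 3.91% lower. Srgn, the proteoglycan serglycin that packs proteases into granules, was at 2893 and 2897 CPM, against 758 and 712 CPM in cycling immature neutrophils. Nkg7, Ms4a3, Prss57 and Cst7 were the other genes at least 2-fold higher in both libraries. The lower genes were Lyz1 and Lyz2 (lysozyme). Lyz2, at 1611 and 3510 CPM, was far below cycling immature neutrophils at 11395 and 11924 CPM. Cd63 was at 979 and 1731 CPM against 597 and 533 CPM, and Ctsc, the activating protease cathepsin C, at 66.6 and 69.1 CPM against 49.4 and 52.8 CPM. In each library the median of this list was 0.58 and 0.83 on the log2 scale, beside 0.46 and 0.52 for all genes.

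Transcription factors of the earliest stages were present at low counts. Myb was at 121 and 72.3 CPM, Myc at 46.4 and 44 CPM against 3.12 and 1.82 CPM in cycling immature neutrophils, and Cebpa, the factor of granulocyte commitment, at 34.5 and 14.1 CPM. Spi1 (PU.1) was at 183 and 300 CPM, beside 210 and 246 CPM in the comparison cells, and Cebpb at 804 and 1083 CPM, beside 1378 and 1267 CPM. Gata1, Gata2 and Irf4 had no UMI. Of the stem and early progenitor list, Kit (the stem cell factor receptor) had 18 and 6 UMIs, Cd34 14 and 0, Cd27 26 and 3, and Mecom none. The list summed to 322 CPM (285 to 363) in control and 160 CPM (131 to 195) in OTM.

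Cell cycle transcripts were common. At least 0.5% of UMIs came from the S phase and G2/M phase genes in 37 of 64 control cells, 57.8% (44.8 to 70.1), and in 33 of 42 OTM cells, 78.6% (63.2 to 89.7). With every cell thinned to 2500 UMIs the counts were 32 and 32 cells, or 50% and 76.2%. Over all filtered cells, thinned alike, the shares were 18.3% in control and 15.8% in OTM, leaving out 549 and 52 cells that were too shallow. Without thinning, azurophil-transcript cells under 1% of specific granule UMIs had shares of 63.6% (47.8 to 77.6) in control and 64.7% (38.3 to 85.8) in OTM. Those at 1% or more had 45% (23.1 to 68.5) and 88% (68.8 to 97.5). The S phase list summed to 2339 CPM in control and 3256 CPM in OTM, and the G2/M list to 3335 and 4121 CPM. Where at least 200 genes per 1000 UMIs were required, the G2/M log2 ratio was -0.57 in place of 0.31. Rrm2, a subunit of ribonucleotide reductase, led the S phase list in OTM at 485 CPM.

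Granulocyte colony-stimulating factor receptor, Csf3r, was at 51.2 and 59.7 CPM, and the subunit Csf2ra at 78.5 and 162 CPM. The macrophage colony-stimulating factor receptor Csf1r had 4 and 5 UMIs. Ly6c2, which both monocytes and early granulocytes carry, was the leading gene of that list and of the monocyte list, at 2221 and 1658 CPM. Apart from it the monocyte list summed to 350 and 193 CPM, against 214 and 206 CPM in cycling immature neutrophils and 3607 and 3313 CPM in cycling monocytes. F13a1 (95.2 and 48.7 CPM), Ms4a6c (91.6 and 73.8 CPM) and, in control, Irf8 made up most of it, and Ccr2 was at 16.7 and 11 CPM.

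Irf8, the transcription factor that directs monocyte and dendritic cell formation, was found in a minority of the control cells. It had 65 UMIs in 15 of the 64 control cells, each with at least 2 UMIs, and 5 UMIs in 5 of the 42 OTM cells, each with 1. The summed level was 77.3 CPM (59.7 to 98.6) in control and 7.86 CPM (2.55 to 18.3) in OTM, or 9.84-fold higher in control (4.01 to 31.3). Of the 65 UMIs, 18 came from 1 control cell. Thinned to 2500 UMIs, 10 of 64 control cells, 15.6% (7.76 to 26.9), and 0 of 42 OTM cells (exact upper bound 8.41%) had a UMI. Cells that should lack Irf8 gave the background, at 1.55% and 1.09% of cycling immature neutrophils thinned alike, from medians of 9300 and 14888 UMIs, and 27.6% and 24.3% of cycling monocytes had one.

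The 15 control cells with at least 2 Irf8 UMIs (a boundary chosen after the values were seen) had a median of 1.68% azurophil transcripts, against 3.19% in the 49 control cells without Irf8. Of the 15, 13 were under 1% of specific granule UMIs. To hold that range alike, these 13 are set beside the 31 control cells without Irf8 under 1%. Ms4a6c and F13a1, genes of the monocyte lineage, were at 248 and 234 CPM, against 21.8 and 53.2 CPM in those 31 cells. Klf4, which acts downstream of Irf8 in monocytes, was at 61.9 against 9.68 CPM (14 and 4 UMIs). Genes of the neutrophil branch were lower, with Cebpe at 35.4 against 208 CPM, Fcnb at 70.7 against 672 CPM and Nkg7 at 650 against 2518 CPM. Csf1r had 4 UMIs in the 13 cells. The 13 cells had a median of 19330 UMIs, deeper than the 12614 of the 31, and the part of depth in the choice by UMIs was not tested.

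**Figure D4:**
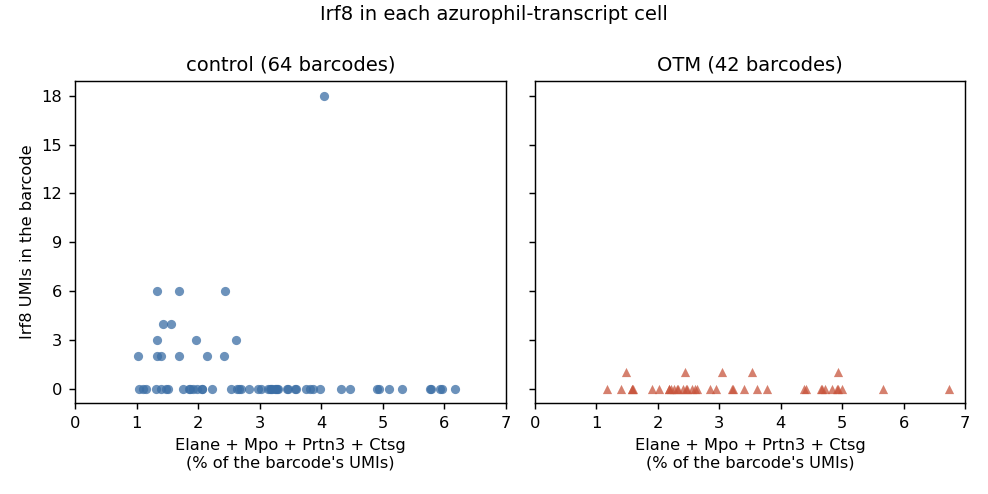
Irf8 UMIs (y axis) in each azurophil-transcript cell, by the share of its UMIs from the 4 selecting genes (x axis, %), control on the left and OTM on the right. In control 15 of 64 cells have 2 or more Irf8 UMIs, with 1 cell at 18, and in OTM 5 of 42 cells have 1.

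Between the conditions, 146 genes were at least 2-fold higher in OTM (5.24% of 2786 genes compared) and 89 at least 2-fold lower (3.19%), while the median gene did not shift (log2 ratio -0.00). These counts come from 1 library each and name genes by size alone. The balance depended on the total used, since without the 4 selecting, mitochondrial, ribosomal protein and hemoglobin genes the higher genes made up 45.1% of the past-2-fold genes in place of 62.1%. The 10 highest and 10 lowest genes are described in turn.

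Saa3, the acute-phase serum amyloid A3, had 51 UMIs in control, in 18 of 64 cells, and 662 in OTM, in 37 of 42 cells. Its level was 60.7 and 1040 CPM, 17.1-fold higher in OTM (12.9 to 23.3). The deepest OTM cell held 315 of the 662 UMIs and the deepest control cell 28 of the 51. The log2 ratio was 4.09 with all cells, 3.25 without that OTM cell, 5.16 without that control cell and 4.32 without both. In OTM the 7 cells with at least 10 UMIs held 577 of the 662, and the other 35 cells held 85. With every cell thinned to 2500 UMIs, 6.25% of control and 50% of OTM cells had a Saa3 UMI, beside 5.67% and 39.7% of cycling immature neutrophils and 7.57% and 76.5% of cycling monocytes. Lrg1, a leucine-rich glycoprotein stored in neutrophil granules, was at 90.4 CPM in 30 control cells and 526 CPM in 37 OTM cells, 5.82-fold higher (4.53 to 7.57). The OTM cell with the most held 39 of its 335 UMIs. Cell counts of this gene and of those below were not thinned. Plscr1 (phospholipid scramblase) was at 55.9 and 382 CPM, in 29 and 35 cells, 6.83-fold higher (4.98 to 9.54). Orm1, the acute-phase orosomucoid, was at 13.1 and 141 CPM, 10.8-fold higher (5.76 to 22.4).

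Il1f9, a cytokine of the interleukin-1 family (IL-36 gamma), had 13 UMIs in 7 control cells and 96 in 27 OTM cells. BC100530, a stefin gene of a near-identical family whose reads may be split among copies, had 15 and 146 UMIs. Wfdc17 had 41 and 199 UMIs, of which 75 came from the deepest OTM cell, and was found in 17 OTM cells and in 23 control cells. Apoe had 49 UMIs over 38 control cells and 181 over 27 OTM cells, with 55 from 1 OTM cell. Mogat2 and Glul (glutamine synthetase) completed the 10, at 16.7 and 104 CPM and at 15.5 and 72.3 CPM.

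In control, Lgals1 (galectin-1) was the most abundant of the 10 genes with the smallest ratios. It was at 927 CPM in 51 of 64 control cells and at 154 CPM in 25 of 42 OTM cells, 6.02-fold higher in control (4.87 to 7.5), and 39 of its 98 OTM UMIs came from the deepest cell. Cxcr4, the receptor that holds immature neutrophils in the marrow, was at 104 CPM in 36 control cells and 22 CPM in 13 OTM cells, 4.7-fold higher in control (2.66 to 8.96). Fkbp11, an isomerase of the secretory pathway, was at 79.7 and 12.6 CPM, and Fabp5, a fatty acid-binding protein, had 56 UMIs in 19 control cells and 1 in OTM, a ratio of 42.4 (7.31 to 1704).

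Other genes of that direction rested on few cells. Cxcl9, an interferon-gamma-induced chemokine, had 50 UMIs in 3 control cells, 38 and 11 of them from 2 cells, and none in OTM, so that control was at least 12.6-fold higher against a floor of 3 UMIs over the group. The cell with 38 also held the most Gbp2 (18 of 49 UMIs in 8 cells) and Serpina3g (31 of 56 UMIs in 6 cells). H2-Aa and H2-Ab1, the MHC class II chains, had 98 and 94 UMIs in control, of which the deepest control cell held 46 and 42, and 14 and 10 in OTM. Without that control cell the log2 ratios were -1.51 and -1.98, in place of -2.36 and -2.77.

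**Figure D5:**
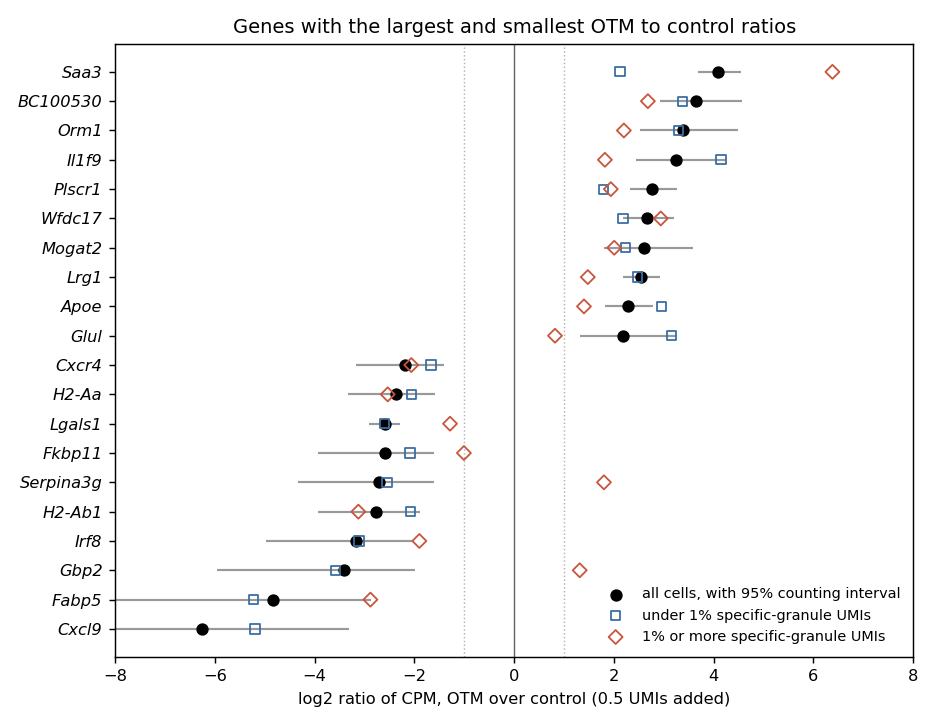
Log2 ratio of CPM, OTM over control, for the 10 highest and the 10 lowest genes, with 0.5 UMIs added: filled circles are all azurophil-transcript cells with 95% counting intervals (those of Cxcl9 and Fabp5 run past the axis), squares cells under 1% and diamonds cells at 1% or more specific granule UMIs. Saa3 is highest at 4.09. Cxcl9 had no UMI in OTM, so its point at -6.26 rests on the 0.5 UMIs added and is no rank. Serpina3g and Gbp2 lie above 0 in the diamonds, where control had no UMI of either, and Cxcl9 has none there.

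Described by the lists, specific granule genes were higher in OTM as a group, with 8 of 14 genes at least 2-fold higher and none lower. Of all genes compared, 5.24% were higher and 3.19% lower. The median log2 ratio was 1.11, beside -0.00 for all genes. Ngp was at 5469 and 17999 CPM, Chil3 at 1388 and 4822 CPM, and Camp at 7883 and 12020 CPM. The summed level was 2.27-fold higher (2.23 to 2.31). Within cells under 1% of Ltf, Camp, Ngp and Lcn2 UMIs the list was at 4407 and 9761 CPM, and within cells at 1% or more the ratio was 0.949, but that division uses 4 genes of the list and limits these ratios.

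Of 20 nucleolus and ribosome biogenesis genes compared, 5 were at least 2-fold lower in OTM, none was higher and 15 lay between. Lower genes made up 3.19% of all genes compared. The median log2 ratio of the list was -0.71. The summed level was 1.68-fold higher in control (1.6 to 1.77), 1.48-fold within cells under 1%, and 1.14-fold higher in OTM within cells at 1% or more. Npm1 was at 1242 and 605 CPM and Mybbp1a at 50 and 14.1 CPM. The endoplasmic reticulum list summed to 11654 and 9650 CPM. Of its 25 genes compared, 1 was at least 2-fold higher and none lower, beside 5.24% and 3.19% of all genes compared. The 1 gene was Xbp1, the transcription factor of secretory cells, at 88 and 242 CPM. Within cells under 1% that list was at 12803 and 13185 CPM, so its lower sum in OTM was not seen there.

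Of 12 azurophil genes outside the rule, 2 were at least 2-fold higher in OTM, Serpinb1a at 779 and 2476 CPM and Lyz2 at 1611 and 3510 CPM, and none was lower. Serpinb1a was higher within both ranges, at 561 and 1689 CPM under 1% and 1473 and 2928 CPM above. Of 8 transcription factors, none was at least 2-fold higher and 2 were lower, Irf8 and Klf2. Cebpe was at 188 and 363 CPM, 1.93-fold higher in OTM (1.57 to 2.38). Of 22 S phase genes 2 were higher and none lower, and of 23 G2/M genes 1 was higher and 1 lower, beside 5.24% higher and 3.19% lower of all genes compared.

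Of the other lists, 3 of 11 gelatinase granule and mature neutrophil genes were at least 2-fold higher in OTM and none was lower, where 5.24% of all genes compared were higher and 3.19% lower. All 12 glycolysis genes lay between, although their sum was 1.42-fold higher in OTM (1.35 to 1.49). That difference was library-wide, with a log2 ratio of 0.51 here beside 0.47 in cycling immature neutrophils, 0.50 in noncycling specific-granule cells and 0.54 in cycling monocytes. Of 3 interferon-stimulated genes compared, 1 was lower, Bst2, and the list summed to 877 and 674 CPM. That direction turned within cells at 1% or more (log2 ratio 0.65 in place of -0.38) and without the cells with at least 2 Irf8 UMIs (0.14). Of 12 immediate early and heat shock genes, 2 were higher and 1 lower, at sums of 3606 and 5031 CPM, and the ratio of sums was 1.15 within cells under 1% and 2.55 within cells at 1% or more. Of 6 colony-stimulating factor receptor and sort marker genes 1 was higher, Csf2ra.

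Compared within cells under 1% of specific granule UMIs, 92 of 1898 genes were at least 2-fold higher in OTM (4.85%) and 73 lower (3.85%). Within cells at 1% or more, 80 of 1260 were higher (6.35%) and 10 lower (0.794%). Of the 61 genes that were higher over all cells and could be compared under 1%, 53 were higher there too, as were 46 of 67 lower genes. Of 89 higher and 9 lower genes that could be compared at 1% or more, 36 and 2 were so there. Without the 15 cells with at least 2 Irf8 UMIs, 33 of 2359 genes compared (1.4%) were at least 2-fold lower in OTM, in place of 89 of 2786 (3.19%). Of the 54 lower genes that could be compared, 26 were still lower.

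Most of the 20 genes had the same sign in the neighbouring stages, but few of the lowest passed 2-fold there. Of the 10 highest, 9 were also higher in OTM in cycling immature neutrophils, 9 in noncycling specific-granule cells and 9 of the 9 with a value in cycling monocytes. Of the 10 lowest, 7 of 7 with a value, 4 of 7 and 6 of 8 were lower there. In the same order of stages, 2-fold was passed by 4, 6 and 7 of the highest genes and by 1, 1 and 2 of the lowest. Saa3 was also higher in OTM in cycling immature neutrophils (log2 ratio 3.69), in noncycling specific-granule cells (4.37) and in cycling monocytes (4.72). Apoe was at log2 ratios of 0.72, 1.34 and 2.76 in these stages, against 2.28 in the azurophil-transcript cells. Orm1 was at 0.83, 0.58 and 3.69, against 3.38, and Mogat2 at -0.38 and -0.49 in the neutrophil stages against 2.60 here. Fabp5 was at -0.69, -0.04 and -0.22 against -4.83. These stages come from the same libraries, and their differences were not tested. For the specific granule list the log2 ratio of sums was 1.18 here. In cycling monocytes, whose Ltf, Camp, Ngp and Lcn2 shares reached 2.64% and 4.51% under their limit of 5%, the list was at 8530 and 17302 CPM, a log2 ratio of 1.02. Chil3 led there, at 2379 and 8279 CPM, and without it the ratio was 0.55 in cycling monocytes and 1.12 in the azurophil-transcript cells. None is given for the neutrophil stages, which were formed by at least 5% of these genes.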

How the data were processed

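Sorted F4/80+CD11b+ cells of control and OTM mice gave 1 library each (10x Genomics 3′ chemistry). Cell Ranger 3.0.0 and mm10 are named in the submitters' notes; the authors deposited UMI counts per gene and barcode, not normalized, for 27998 genes. No reads were realigned. The notes also name Seurat 3.0.0.

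Members and lists were chosen with earlier results of these data known. Sums, shares and ratios were computed in Python 3.11.15 with numpy 2.4.6, scipy 1.17.1 and pandas 2.3.3, with exact Poisson, Clopper-Pearson and conditional binomial 95% intervals. Genes with at least 50 UMIs over both libraries' members were compared between conditions, and, between stages, those with at least 20 UMIs over both groups of cells in each library. Log2 ratios had 0.5 UMIs added, and 2-fold marks size, not a test. Named genes were those of 15 fixed lists and 11 marker lists, the 15 most abundant, and the 10 highest and lowest of each comparison; the comparison by specific granule share was added after seeing the data. Doublets were sought with Scrublet in scanpy 1.11.5. TMM came from edgeR 4.0.16 without its tests. Scripts were tested on simulated data. Alternatives were other thresholds, gene minimums, totals, TMM, weights per barcode and left-out cells. Positions are GENCODE vM21, promoters RefSeq GRCm38.p6. The 12 genes sought were found in GENCODE.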

Additional observations from a re-analysis of the deposited data

How the results depend on the processing

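No paired analysis was possible because each condition had 1 library, and for the same reason no library was left out. Ratios of genes with few UMIs are limited by depth. Removing the Scrublet doublets left out no azurophil-transcript cell, so it is no check of them. The share of cells chosen was 1.48% in control and 1.71% in OTM at a 2% boundary, and 2.72% and 2.78% at a 0.5% boundary. At both boundaries the order of the libraries turned. The shares were 1.47% and 1.35% where at least 200 genes per 1000 UMIs were also required. In the same order of higher and lower in OTM, against 146 and 89 genes, a minimum of 20 UMIs gave 314 and 325 of 5021 genes compared, a minimum of 200 UMIs 41 and 12 of 871, and the requirement of genes per UMI 53 and 12 of 1057, beside 2786 as reported. The higher genes were thus 6.25%, 4.71% and 5.01% of those compared, beside 5.24%, and the lower genes 6.47%, 1.38% and 1.14%, beside 3.19%. Cells under 1% of specific granule UMIs gave 92 higher of 1898 genes compared, and cells at 1% or more gave 80 higher and 10 lower of 1260. Lower genes numbered 139 of 2786 with reduced totals (4.99%) and 36 of 2131 at a 2% boundary (1.69%). Without the cells with at least 2 Irf8 UMIs they numbered 33 of 2359 (1.4%). Against cycling immature neutrophils, where 1212 genes were higher and 222 lower, the counts were 473 and 614 with TMM, 2121 and 96 with reduced totals, and 303 and 72 of 1394 genes compared with the requirement of genes per UMI, and 765 of 3479 were higher at the larger gene minimum (21.7% and 22% higher, beside 21.4%). Leaving out that removal, of 81 alternatives for the summed lists 27 stayed within counting error, 48 moved beyond it and 6 changed direction. These were G2/M (log2 ratio -0.57, from 0.31) with the requirement of genes per UMI, endoplasmic reticulum (0.042, from -0.27) under 1%, specific granule (-0.075, from 1.18), nucleolus (0.19, from -0.75) and interferon-stimulated genes (0.65, from -0.38) at 1% or more, and the last also without the Irf8 cells (0.14). The cause was not tested, except that the specific granule ratio is limited by a division on 4 of its genes.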
